A study of Mus musculus with 12 samples.

Results

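Lysyl oxidase and matricellular genes were followed in epididymal white adipose tissue (eWAT) of mice, 10 of the 23474 genes in the expression table. They are the rows whose Ensembl identifier belongs to Lox, Loxl1, Loxl2, Loxl3, Fn1, Sparc, Thbs1, Thbs2, Tnc or Postn, a list of names drawn up with earlier results of these data known. Each of the 10 had a row, and each passed the filter of a mean of at least 1 FPKM in all 6 comparisons between groups. FPKM counts the fragments of a gene per kilobase of transcript and per 1M mapped fragments.

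The libraries came from male C57BL/6J mice that were put on their diets at 5 weeks of age and sampled 12 weeks later, at 17 weeks. The normal diet group (ND) received no extract. The other groups all ate the high-fat diet, either alone (HFD), with an ethanol extract of green tea at 0.25% (GT) or with Taeeumjowitang, a herbal formula, at 3% (TJ), both by weight of diet. Each group of 10 mice gave 3 libraries, so that 12 libraries were compared. The methods describe the HFD and TJ libraries as single mice, and those of ND and GT were taken to be the same kind of replicate. A pair of the comparisons asks what each extract did to mice on the high-fat diet, and both use the same 3 HFD libraries.

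Lysyl oxidases are secreted copper enzymes that oxidise lysine side chains of collagen and elastin, which lets neighbouring fibres join by covalent cross-links. Matricellular proteins are secreted into the matrix as well, but they mostly tune how cells attach to it and how growth factors reach the cells, and fibronectin is the adhesive scaffold on which other matrix is laid down. In obesity the expanding fat depot deposits more of this matrix between its adipocytes, and stromal cells are its main source.

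The estimated depth was 14.2M to 19.6M fragments per library in the HFD, GT and TJ groups, and 9.89M, 15.8M and 15.0M in ND replicates 1 to 3. FPKM gives no counting error, so precision rests on the spread between libraries. ND replicate 1 stood apart from the other 11 libraries. Its Spearman correlations with them, over genes, were 0.665 to 0.829, against 0.873 to 0.981 among the other 11. The 12 testis germ cell markers summed to 102866 FPKM and the 12 epididymis markers to 28695 FPKM in it. The 8 adipocyte markers summed to 4107 FPKM there and to 17234 to 59285 FPKM in the other libraries. The 10 fibroblast and progenitor markers summed to 141 FPKM there and to 1010 to 1506 FPKM elsewhere. No marker of either list was under 0.1 FPKM in any library. Comparisons with ND are therefore given with and without this library. ND replicate 3, which stays in, also held germ cell markers at 3257 FPKM in sum, and ND replicate 2 held them at 183 FPKM. The part of these markers in the results was not tested. In whole tissue, fewer cells of a type and less RNA per cell cannot be told apart.

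**Figure D1:**
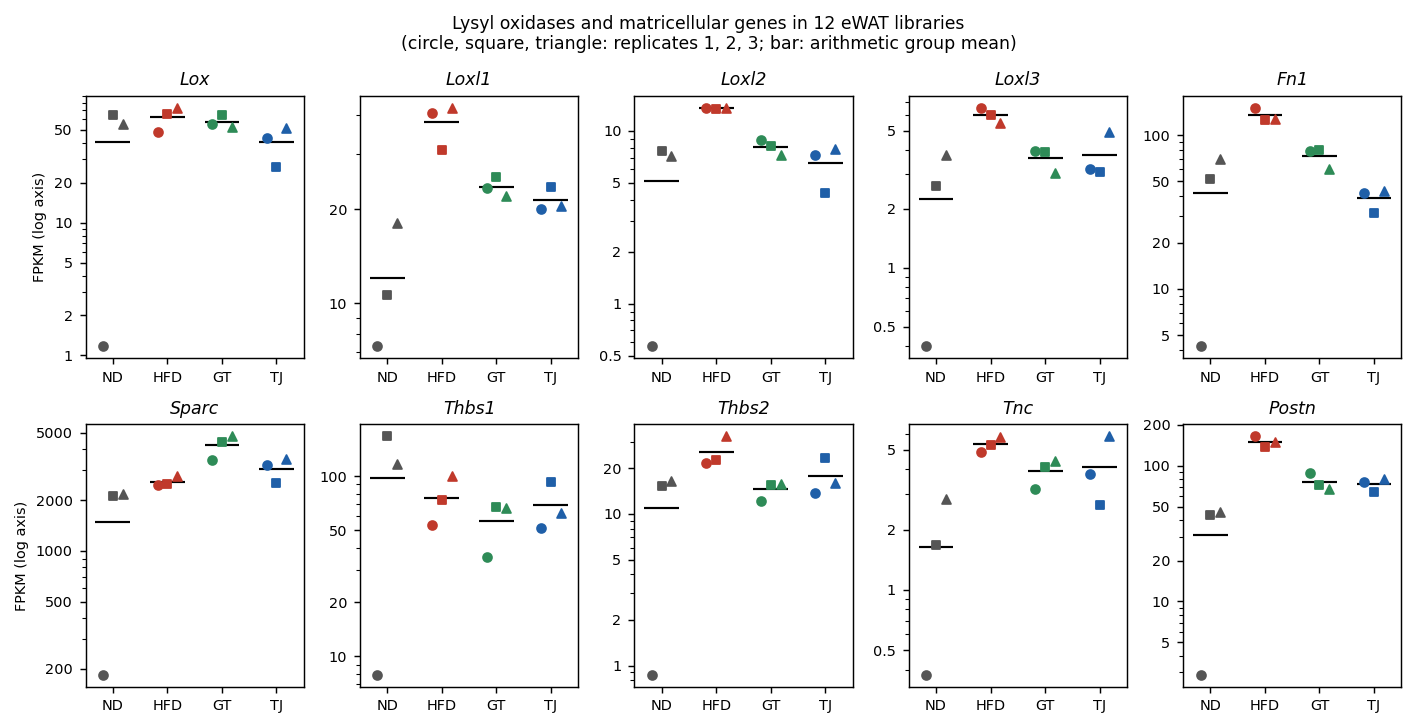
FPKM of the 10 genes in each library, by group (log axis, a point for each of 3 libraries and a bar at the mean). ND replicate 1 is the lowest point of every gene, and for Fn1, Postn and the lysyl oxidases Loxl1, Loxl2 and Loxl3 the 3 HFD points lie above all others.

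Lox, the founding lysyl oxidase, lies on chromosome 18 (GRCm38, 52516067 to 52529867, minus strand). It measured 47.7, 66.0 and 73.6 FPKM in the HFD libraries, 55.5, 64.6 and 52.3 in GT, and 43.0, 26.1 and 52.0 in TJ. In ND it measured 1.18, 64.4 and 54.9. The HFD and GT ranges overlapped, and a single TJ library, replicate 2, was well under the rest of the mice on the high-fat diet. In the limma fit on log2(FPKM + 1), the scale of every log2 value here, TJ minus HFD was −0.65 (SE 0.28, adjusted p = 0.127) and GT minus HFD was −0.10 (SE 0.17, adjusted p = 0.717). Neither was called, where a call needs an adjusted p under 0.05 and a change of at least 1.5-fold.

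Loxl1 and Loxl2, paralogs of Lox, were called lower under both extracts. Loxl1, which acts on elastic fibres, lies on chromosome 9 (58287738 to 58313186, minus strand) and measured 40.6, 30.9 and 42.3 FPKM in HFD. It was at 20.0, 23.6 and 20.5 FPKM in TJ and at 23.3, 25.3 and 22.0 FPKM in GT. Every HFD library lay above every library of the other groups, since ND held 7.30, 10.6 and 18.1. Loxl1 fell by 0.79 in TJ (SE 0.16, limma adjusted p = 0.0278) and by 0.66 in GT (SE 0.14, limma adjusted p = 0.0489).

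Loxl2 (chromosome 14, 69609068 to 69695834, plus strand) is known for cross-linking the basement membrane collagen network. Its HFD libraries were almost equal at 13.5, 13.4 and 13.6 FPKM, with 7.23, 4.37 and 7.88 in TJ, 8.90, 8.18 and 7.20 in GT, and 0.569, 7.61 and 7.16 in ND. It fell by 0.99 in TJ (SE 0.20, limma adjusted p = 0.0279) and by 0.68 in GT (SE 0.10, limma adjusted p = 0.0338). Loxl3 (chromosome 6, 83034173 to 83052562, plus strand) was the least abundant of these 4 enzymes in HFD, at 6.57, 6.04 and 5.50 FPKM in HFD. It measured 3.19, 3.09 and 4.94 in TJ, 3.92, 3.90 and 3.06 in GT, and 0.398, 2.60 and 3.75 in ND. Again no library of another group reached the HFD range. The fall of 0.61 in GT was called (SE 0.13, limma adjusted p = 0.0493) and the difference of −0.59 in TJ was not (SE 0.19, limma adjusted p = 0.0613). Loxl3 overlaps Htra2 on the opposite strand, and the study left Cufflinks at its default library type, which is unstranded, so reads of the 2 genes may be mixed. Lox, Loxl2, Fn1, Thbs1 and Tnc also overlap annotated genes on the opposite strand, so the same limit holds for them.

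Loxl4, the fifth lysyl oxidase, was not among the 10 genes and shows the range of the family. It measured 1.79, 1.8 and 1.67 FPKM in HFD, 1.26, 1.13 and 1.69 in TJ and 1.96, 1.94 and 2.17 in GT. Its differences from HFD were −0.23 in TJ (limma adjusted p = 0.398) and 0.14 in GT (limma adjusted p = 0.57), and neither was called.

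The summed FPKM of the 5 lysyl oxidases was 121.7 ± 13.5 in HFD, 94.8 ± 8.62 in GT and 73.4 ± 14.4 in TJ (SD, n = 3). Within that sum, Lox made up 51.0% ± 6.74 in HFD, 60.6% ± 1.49 in GT and 54.0% ± 8.08 in TJ. Lox was thus the most abundant of the enzymes per transcript length on the high-fat diet, and Loxl1 came next with 31.3%, 24.9% and 30.3%. In ND replicate 1 the order was different, with Loxl1 at 75.9% and Lox at 12.2% of the family.

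The paralogs share the copper-binding stretch of the catalytic domain, and how close these sequences are bears on whether reads of one gene could be counted for another. The coding bases of this stretch are shown for 4 of them, from the GRCm38 transcripts of GENCODE release 21, 5′ to 3′ on the coding strand, with the 4 histidine codons in capitals. In each gene the stretch crosses an intron, so the coordinates span more than the 33 bases printed. They are chr9:58293720-58294381 for Loxl1, chr14:69682316-69689037 for Loxl2, chr6:83049995-83050125 for Loxl3 and chr19:42598807-42599899 for Loxl4.
Loxl1: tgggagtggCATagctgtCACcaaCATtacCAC
Loxl2: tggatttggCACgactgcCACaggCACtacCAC
Loxl3: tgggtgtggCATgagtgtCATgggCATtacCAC
Loxl4: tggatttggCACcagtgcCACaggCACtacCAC
Loxl2 and Loxl4 shared 31 of the 33 bases and Lox and Loxl1 shared 32, while the other pairs shared 21 to 25. Over whole transcripts the longest identical run between any pair of the family was 32 bases, between Lox and Loxl1. That between Thbs1 and Thbs2 was 26 bases. Reads of 100 bases are longer than each of these runs.

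Fn1 encodes fibronectin (chromosome 1, 71585520 to 71653200, minus strand) and changed most among the 10 genes under TJ. Its HFD libraries held 152, 126 and 128 FPKM and its TJ libraries 41.8, 31.3 and 43.3. The GT libraries held 79.0, 80.8 and 60.4, and lay between the HFD and TJ libraries with no overlap on either side. The ND libraries held 4.24, 52.0 and 69.7. Fn1 fell by 1.78 in TJ (SE 0.17, limma adjusted p = 0.0196) and by 0.88 in GT (SE 0.14, limma adjusted p = 0.0379). The mean level in TJ was 0.288 of that in HFD, and in GT it was 0.544 of it.

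Postn encodes periostin, which binds collagen and assists its cross-linking, and lies on chromosome 3 (54361109 to 54391037, plus strand). It was at 165, 137 and 150.5 FPKM in HFD, 75.9, 64.2 and 79.9 in TJ, 88.4, 72.6 and 66.8 in GT, and 2.88, 43.3 and 45.7 in ND. All 3 HFD libraries were above all 9 others, and TJ and GT lay over the same range. Postn fell by 1.03 in TJ (SE 0.15, limma adjusted p = 0.0196) and by 0.99 in GT (SE 0.13, limma adjusted p = 0.0337).

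Sparc, the most abundant of the 10, encodes osteonectin, a collagen-binding glycoprotein made by adipocytes as well as stromal cells. It lies on chromosome 11 (55394500 to 55423183, minus strand). It measured 2456, 2486 and 2761 FPKM in HFD and 3464, 4432 and 4773 in GT, so that every GT library exceeded every HFD library. In TJ it measured 3225, 2508 and 3493, which overlapped HFD. Sparc rose by 0.71 in GT (SE 0.14, limma adjusted p = 0.0477). It was the only gene of the 10 called higher in the limma fits of 6 libraries before any alternative setting. TJ minus HFD was 0.25 (SE 0.18, limma adjusted p = 0.319), and −0.14 after quantile normalization.

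The 300 bases around a start site are shown for Postn and Sparc because these genes moved in opposite directions under GT. They come from RefSeq (GRCm38.p6), 5′ to 3′ on the strand of the gene, 250 bases before the start and 50 from it. The Postn window is chr3:54360857-54361156, plus strand, and the Sparc window is chr11:55420031-55420330, minus strand, inside the longer gene span of GENCODE. A set of 6 motifs was searched on both strands. No match overlapped another in these windows, and the matches are in capitals.
Postn: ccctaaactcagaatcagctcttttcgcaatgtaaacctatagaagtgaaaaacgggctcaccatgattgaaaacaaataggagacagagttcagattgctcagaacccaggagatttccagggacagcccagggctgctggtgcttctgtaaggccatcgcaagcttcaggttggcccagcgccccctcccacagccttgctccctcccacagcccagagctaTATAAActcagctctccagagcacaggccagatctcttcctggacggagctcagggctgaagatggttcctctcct
Sparc: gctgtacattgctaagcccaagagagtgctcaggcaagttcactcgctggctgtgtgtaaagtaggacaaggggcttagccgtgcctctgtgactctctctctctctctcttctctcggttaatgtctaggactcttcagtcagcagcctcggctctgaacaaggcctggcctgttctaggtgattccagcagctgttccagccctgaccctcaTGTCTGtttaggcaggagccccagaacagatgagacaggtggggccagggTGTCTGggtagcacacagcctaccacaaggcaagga
The Postn window held the TATA box letters TATAAA, beginning 26 bases before the start, and these letters were in 13.6% of 32851 RefSeq promoter windows. The Sparc window held the SMAD letters CAGACA on the opposite strand, beginning 36 bases before the start and 14 after it, and 21.04% of windows held them. The letters TGANTCA (AP-1), CATTCC (TEAD), CCAAT and GGGCGG (GC box) were in neither window and in 7.81%, 14.7%, 37.4% and 35.7% of all windows. The Thbs2 and Tnc windows both held TATAAA and CAGACA on one or the other strand, with TATAAA beginning 126 bases before the start in each. The Thbs2 window also held CCAAT, and the Tnc window GGGCGG. These are matches of letters and no measure of binding.

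Thbs1, Thbs2 and Tnc were not called against HFD in the limma fits as set out above, though Thbs2 passed in GT under some other settings. Thbs1, a secreted activator of latent TGF-beta (chromosome 2, 118111876 to 118127133, plus strand), measured 53.7, 74.1 and 100.2 FPKM in HFD, 51.7, 93.0 and 62.2 in TJ and 35.8, 67.6 and 66.8 in GT. The 3 groups overlapped, with differences of −0.14 (SE 0.29, limma adjusted p = 0.732) in TJ and −0.43 (SE 0.31, limma adjusted p = 0.388) in GT. The 95% interval of the TJ difference ran from −0.82 to 0.55, which holds a fall of 1.5-fold.

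Thbs2, its paralog (chromosome 17, 14665500 to 14694235, minus strand), measured 21.6, 22.6 and 32.5 FPKM in HFD, 13.8, 23.5 and 15.95 in TJ and 12.3, 15.5 and 15.7 in GT. All GT libraries were under all HFD libraries, and TJ replicate 2 lay within the HFD range. The differences were −0.51 in TJ (SE 0.24, limma adjusted p = 0.146) and −0.76 in GT (SE 0.18, limma adjusted p = 0.0582). The GT difference was called with a filter at 5 FPKM, with array weights and with the length trend removed, and its limma adjusted p ranged from 0.00359 to 1.00 over all alternatives. Tnc, tenascin C, an anti-adhesive protein of remodelling matrix (chromosome 4, 63959785 to 64047015, minus strand), was low throughout. It measured 4.85, 5.30 and 5.80 FPKM in HFD, 3.79, 2.64 and 5.84 in TJ and 3.20, 4.12 and 4.38 in GT, with differences of −0.36 (limma adjusted p = 0.282) and −0.37 (limma adjusted p = 0.132).

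In TJ against HFD, 4 of the 10 genes were called, all lower, namely Fn1, Postn, Loxl2 and Loxl1. Of all 12807 genes tested, 18.5% were called in either direction and 11.1% were called lower. The HFD and TJ libraries did not overlap for 5 of the 10, the same 4 and Loxl3, all lower in TJ, and the groups did not overlap in that direction for 31.4% of all genes. The median difference of the 10 was −0.62, against −0.14 for all genes tested. The 4 calls became 0 when any HFD library or TJ replicate 1 was left out, and so did the calls over all genes, of which 3732 to 4735 kept an unadjusted p under 0.05 by limma. They became 5 without TJ replicate 2 (Thbs2 added), where 15.7% of all genes were called, and 5 without TJ replicate 3 (Loxl3 added), where 26.5% were. The 4 log2 differences themselves stayed between −0.71 and −1.87 whichever library was left out.

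In GT against HFD, 6 of the 10 were called. Fn1, Postn, Loxl1, Loxl2 and Loxl3 were lower and Sparc was higher. Of all 12766 genes tested, 3.63% were called, 1.83% higher and 1.81% lower. The libraries did not overlap for 8 of the 10, 7 lower and 1 higher in GT, where 24.4% and 12.3% of all genes did not overlap in those directions. The median of the 10 was −0.63, against −0.12 for all genes. The 6 calls became 5 without GT replicate 1, where 8.63% of all genes were called. Without any single other library they became 0, and 4 to 66 of all genes were called, while the signs of all 6 stayed as they were. Their adjusted p-values lay between 0.0337 and 0.0493 with all libraries.

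Scaling mattered for the balance of these calls. The median of all genes moved from −0.14 to −0.02 in TJ and from −0.12 to −0.01 in GT with median-of-ratios scaling, and to 0.03 in both with quantile normalization. Relative to all genes, the median of the 10 was lower by 0.479 in TJ and 0.509 in GT, and by 0.474 and 0.507 with median-of-ratios scaling. Over all genes, 40.1% of the TJ calls were higher, against 54.3% with median-of-ratios scaling and 57.3% with quantile normalization. The same shares in GT were 50.2%, 73.3% and 71.4%. With median-of-ratios scaling Fn1, Loxl2 and Postn were called lower in TJ, and Fn1 and Postn lower and Sparc higher in GT.

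**Figure D2:**
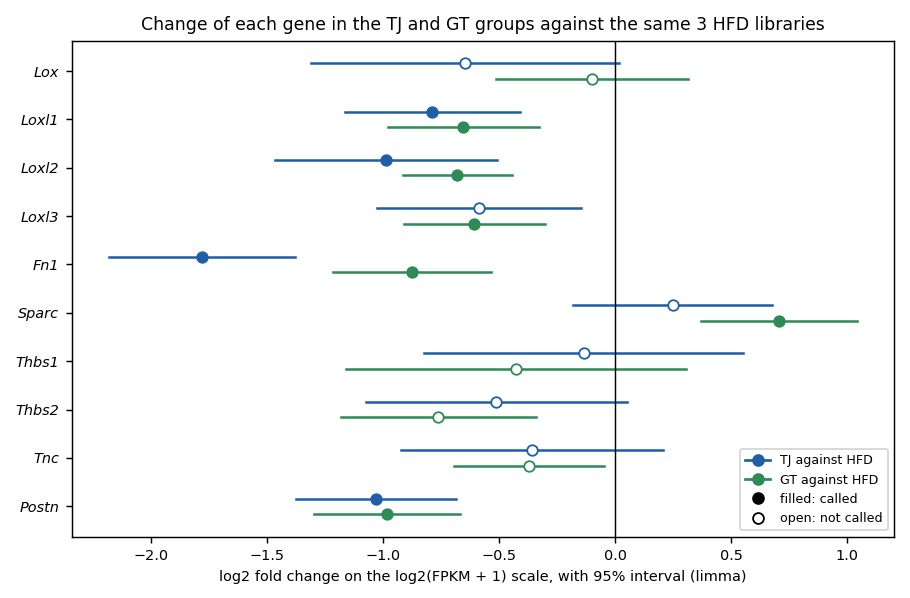
Log2 differences of the 10 genes in TJ minus HFD (blue) and GT minus HFD (green), with 95% intervals of the limma fit on the log2(FPKM + 1) scale and filled points for called genes. Fn1 and Postn lie lowest in both comparisons, and Sparc is the gene on the higher side.

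TJ and GT were set against each other directly, at different doses of different extracts. None of the 10 was called, by limma, among 12187 tested genes of which 18, or 0.148%, were called and 2996 had an unadjusted p under 0.05. Fn1 was lower in TJ by 0.90 (95% interval −1.33 to −0.47, adjusted p = 0.1), with all 3 TJ libraries under all 3 GT libraries and an exact two-sided permutation p of 0.1, the smallest that 3 against 3 allows. Lox also did not overlap, at −0.55 (−1.12 to 0.03), and 14.9% of all genes did not overlap in that direction. Fn1 was the one gene of the 10 whose interval lay on one side of 0. For Postn the interval was −0.42 to 0.33 and for Loxl1 −0.45 to 0.18. For Sparc it was −1.05 to 0.13, which holds a change of over 1.5-fold.

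HFD against ND asked how the diet itself moved these genes. With all 6 libraries none of the 10 was called by limma, where 255 of 14430 genes, or 1.77%, were called and 1672 had an unadjusted p under 0.05, 4 of them among the 10. With the replicate numbers as a block, an uncertain pairing described under processing, 0 of all genes were called by limma and 2239 had an unadjusted p under 0.05. Over all genes 0 were also called without any single HFD library, 24 without ND replicate 2 and 23 without ND replicate 3. Still, 8 of the 10, all but Lox and Thbs1, had every HFD library above every ND library, as had 20.5% of all genes. The median of the 10 was 1.62 and that of all genes 0.07, and without ND replicate 1 they were 0.78 and −0.02. The difference ranged from 0.41 for Thbs1 (adjusted p = 0.85) to 2.92 for Postn (SE 1.00, adjusted p = 0.322).

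Without ND replicate 1, 5 of the 10 were called higher in HFD, where 15.4% of 13661 genes were called, 11.0% higher and 4.34% lower. The replicate block was not used in this fit. Postn was higher by 1.73 (limma adjusted p = 0.00158) and Loxl1 by 1.37 (limma adjusted p = 0.0267). Fn1 (52.0 and 69.7 FPKM in ND replicates 2 and 3) was higher by 1.15 (limma adjusted p = 0.0132), Tnc by 0.97 (limma adjusted p = 0.0491) and Loxl2 by 0.79 (limma adjusted p = 0.0142). Loxl3 differed by 0.76 (limma adjusted p = 0.064) and Thbs2 by 0.63 (limma adjusted p = 0.109). Lox, at 64.4 and 54.9 FPKM in these ND libraries, differed by 0.05 (limma adjusted p = 0.9). Sparc, at 2103 and 2175 FPKM, differed by 0.26 (limma adjusted p = 0.267). Thbs1 was at 166 and 117 FPKM in these 2 ND libraries, both above the HFD libraries, and its difference turned from 0.41 to −0.91 (limma adjusted p = 0.109).

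Against ND, neither extract group gave a call among the 10, with or without ND replicate 1. No gene at all was called in TJ against ND (0% of 14251, with 1532 at an unadjusted p under 0.05 by limma) or in GT against ND (0% of 14249, 1508). Without ND replicate 1, 0 of 13314 genes were called in TJ against ND and 6 of 13306, or 0.0451%, in GT against ND. Without ND replicate 2 the counts over all genes were 1148 and 1038, with none of the 10 among them. Without ND replicate 1, Postn differed by 0.70 in TJ (limma adjusted p = 0.143) and 0.75 in GT (limma adjusted p = 0.081), and Loxl1 by 0.59 and 0.72 (limma adjusted p = 0.229 and 0.154). Fn1 differed by −0.63 in TJ (limma adjusted p = 0.19) and by 0.27 in GT (limma adjusted p = 0.433). Sparc differed by 0.51 in TJ (limma adjusted p = 0.29) and by 0.97 in GT (limma adjusted p = 0.0875).

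Ratios taken inside a library do not depend on its scaling. They were chosen after the levels had been seen and are given as a description, with no p-value. Postn relative to Sparc was 0.0671, 0.0551 and 0.0545 in HFD, 0.0235, 0.0256 and 0.0229 in TJ, 0.0255, 0.0164 and 0.0140 in GT, and 0.0156, 0.0206 and 0.0210 in ND. ND replicate 1 was near the other ND libraries on this ratio. The HFD median was 2.68 times that of ND (2.65 times without ND replicate 1), 3.36 times that of GT and 2.34 times that of TJ. Fn1 relative to Sparc gave the same separation of HFD, with medians of 0.0505 in HFD, 0.0247 in ND (0.0284 without ND replicate 1), 0.0182 in GT and 0.0125 in TJ.

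Thbs2 relative to Thbs1 was 0.402, 0.305 and 0.324 in HFD and 0.110, 0.0918 and 0.141 in ND, a difference of 2.95-fold between medians, or 2.78-fold without ND replicate 1. TJ held 0.267, 0.253 and 0.256, all under HFD. GT held 0.343, 0.229 and 0.236, which overlapped HFD. The 5 ratios computed include a pair within the lysyl oxidases. Loxl1 relative to Lox was 0.469 to 0.852 in HFD, 0.395 to 0.904 in TJ, 0.391 to 0.421 in GT and 0.165 to 6.20 in ND (0.165 and 0.330 without ND replicate 1), so that HFD overlapped TJ. Loxl2 relative to Lox was 0.185 to 0.283 in HFD, above TJ (0.151 to 0.168) and GT (0.127 to 0.16), and above ND replicates 2 and 3 (0.118 and 0.130), while ND replicate 1 exceeded every HFD library at 0.483.

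**Figure D3:**
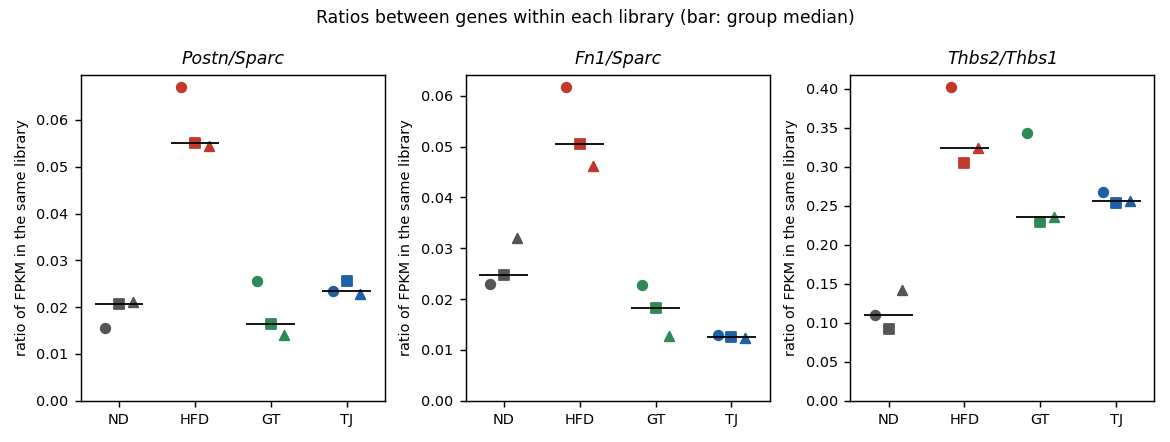
Ratios of FPKM inside each library for Postn to Sparc, Fn1 to Sparc and Thbs2 to Thbs1, by group (a point for each library, a bar at the median). The HFD points lie above those of the other groups, apart from 1 GT library for Thbs2 to Thbs1.

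Other matrix genes were described from lists written by function. The shares of all genes to read their counts against are 11.1% lower and 7.41% higher in TJ, and 1.81% lower and 1.83% higher in GT. Of 11 collagens, which were fibrillar or beaded-filament types and the fibril-associated Col12a1 and Col14a1, 5 were called lower in TJ (Col1a1, Col1a2, Col3a1, Col5a2 and Col14a1) and none higher, with a median of −0.66. They ranged from Col3a1, at −1.89 (mean 809 FPKM in HFD and 238 in TJ, limma adjusted p = 0.0276), to Col5a3 at −0.10. In GT none of the 11 was called by limma, where 3744 of all genes had an unadjusted p under 0.05, and the median was −0.36. Col3a1 was at −0.78 there (limma adjusted p = 0.0761) and Col5a3 at 0.50.

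Elastic fibre genes went both ways. Of 14 tested in TJ, where 18.5% of all genes were called, 4 were called lower (Fbn1, Fbln1, Mfap4 and Mfap5) and 2 higher (Eln and Ltbp4), with a median of −0.27. Fbn1, fibrillin 1, fell from a mean of 57.6 to 15.2 FPKM, a log2 change of −1.88 (limma adjusted p = 0.0196), and Ltbp4, which anchors latent TGF-beta, rose by 0.98 (limma adjusted p = 0.0432). In GT, Fbln1, Fbn1 and Mfap5 were called lower and Eln, the elastin gene, rose by 1.03 (limma adjusted p = 0.0338).

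Among 15 enzymes of collagen synthesis tested, 4 were called lower in TJ (Plod2, P4ha1, Pcolce and Adamts14) and none higher, with a median of −0.19. Plod2, the lysyl hydroxylase whose product the lysyl oxidases then use, fell by 0.96 in TJ (limma adjusted p = 0.0232) and was the one enzyme called in GT, where it fell by 0.75 (limma adjusted p = 0.0379). Of 13 basement membrane genes, Hspg2 and Lama5 were called higher and Lama2 lower in TJ, 3 of 13 and so near the 18.5% of all genes. Lama5 rose by 1.25 (limma adjusted p = 0.0247) and Lama2 fell by 1.17 (limma adjusted p = 0.0199), and in GT Lama2 was the single call, with a fall of 0.74 (limma adjusted p = 0.0361).

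Of 14 other matricellular genes tested, Comp and Tnxb were called lower and Ccn5 and Smoc1 higher in TJ, against 11.1% lower and 7.41% higher among all genes. The lowest was Spp1, osteopontin, at −2.89 (mean 71.9 FPKM in HFD and 13.0 in TJ), which missed the threshold (limma adjusted p = 0.0512). Smoc1, a relative of Sparc, rose by 1.01 in TJ (limma adjusted p = 0.0196) and by 0.95 in GT (limma adjusted p = 0.0379), the single call of this list in GT. Of 8 small leucine-rich proteoglycans, which coat collagen fibrils, Bgn, Fmod, Lum and Ogn were called lower in TJ, against 11.1% of all genes, and none higher. Lum was the lowest at −1.84 (limma adjusted p = 0.0343), and none of the 8 was called in GT by limma.

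Receptors for these proteins include the integrins. Of 19 integrins and other matrix receptors tested in TJ, 6 were called lower (Itga5, Itga9, Itga11, Itgav, Itgb3 and Stab1) and none higher, against 11.1% and 7.41% of all genes, with a median of −0.50. Itgav, the alpha chain that pairs with several beta chains to bind fibronectin and periostin, fell by 1.23 (limma adjusted p = 0.0196). Stab1, a scavenger receptor for Sparc found on macrophages, was the single call in GT, at −0.76 (limma adjusted p = 0.0482). In the TGF-beta pathway Tgfbr1, Tgfbr2 and Tgif1 were called lower and Pmepa1 higher in TJ, 4 of 13 tested against 18.5% of all genes. Pmepa1, an inhibitor of the pathway that TGF-beta itself induces, rose from a mean of 80.2 FPKM in HFD to 187.6 in TJ (log2 change 1.2, limma adjusted p = 0.0196) and to 229.2 in GT (1.5, limma adjusted p = 0.00646). Tgfbr1, the type I receptor, fell by 1.84 in TJ (limma adjusted p = 0.0263) and by 0.93 in GT (limma adjusted p = 0.0482). In HFD against ND the calls in all these lists were Sdc1 and Tgfb1, both higher in HFD, where 1.77% of all genes were called, and neither was called with the replicate block.

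Without ND replicate 1, where 11.0% of all genes were called higher in HFD and 4.34% lower, the lists held more calls. Of the 11 collagens 10 were called higher, all but Col5a3, with a median of 1.26. Of 15 enzymes of collagen synthesis 7 were called higher and none lower, and of 14 elastic fibre genes 5 were called higher and 1, Fbln5, lower. Of 19 receptors 5 were called higher (Itga5, Itgav, Lrp1, Sdc1 and Stab1) and none lower. Basement membrane genes had 2 calls, Lama4 and Lamb2, both lower. Among the other matricellular genes Sparcl1 and Spp1 were called higher and Ccn3 and Smoc1 lower. Bgn and Lum were called higher and Podn lower among the proteoglycans. In the TGF-beta pathway 4 of 14 were called higher (Tgfb1, Tgfbr1, Tgfbr2 and Tgif1) and 2 lower (Pmepa1 and Tgfbr3).

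**Figure D4:**
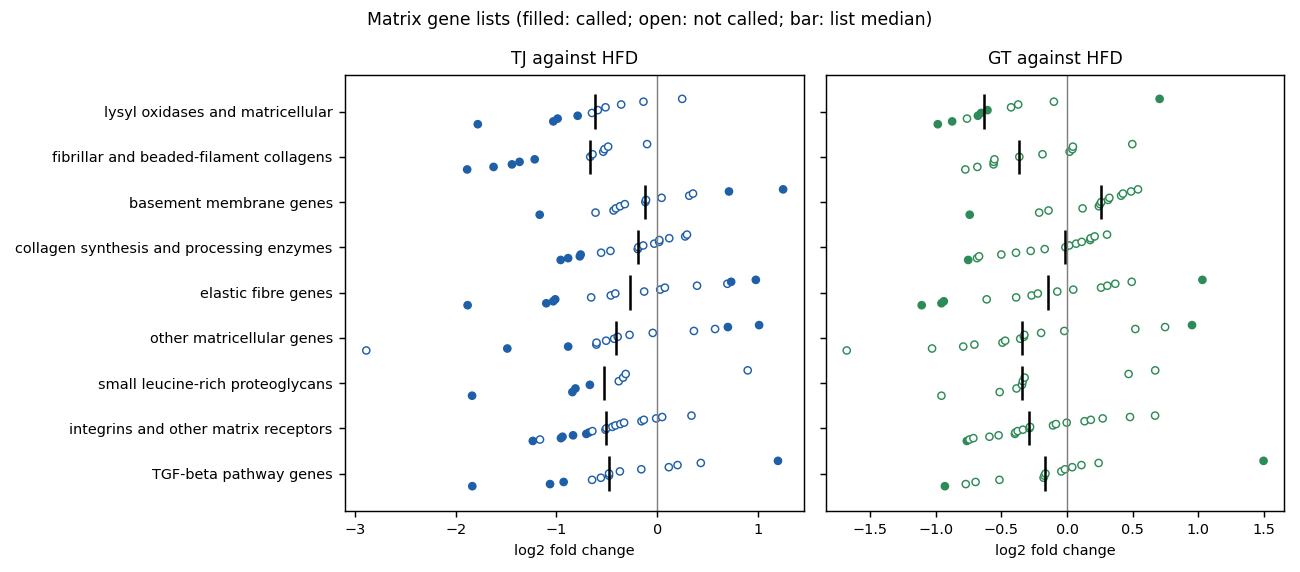
Log2 differences in TJ minus HFD and GT minus HFD for the 10 genes and each list of other matrix genes (a point for each gene tested, filled where called, with the list median as a bar, on the log2(FPKM + 1) scale). The medians of the collagens and the 10 genes lie lowest in TJ minus HFD, at −0.66 and −0.62.

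Markers of some cell types, though not all, also differed between the groups. The 10 macrophage markers summed to 4067 to 5622 FPKM in HFD, 769 to 2698 in TJ and 1476 to 3622 in GT, with 70.1, 577 and 453 in ND replicates 1 to 3. Of the 10, 6 were called lower in TJ (median −1.98), against 11.1% of all genes, and 0 in GT by limma (median −1.01). In HFD against ND 5 were called higher, against 1.77% of all genes called, and 0 with the replicate block by limma, as for all genes. Without ND replicate 1 all 10 were called higher, against 11.0% of all genes. In that fit 5 of 8 adipocyte markers were called lower (Adipoq, Cidec, Lipe, Plin1 and Pnpla2, list median −0.88) and 1, Lep, higher, and 3 of 7 mesothelial markers were called lower (Lrrn4, Msln and Upk3b), against 4.34% of all genes. There too 3 of 10 fibroblast and progenitor markers were called higher (Cd34, Pdgfrb and Pi16, list median 0.34). The 10 fibroblast and progenitor markers summed to 1200 to 1275 FPKM in HFD, 1085 to 1506 in TJ and 1010 to 1077 in GT. Among them Cd34 and Pdgfra were called lower in both and Pi16 in GT, which made 2 of 10 in TJ, against 11.1% of all genes, and 3 of 10 in GT, against 1.81%. Their medians were −0.34 in TJ and −0.36 in GT. The 8 adipocyte markers summed to 17234 to 19646 FPKM in HFD, 29304 to 59285 in TJ and 24059 to 27622 in GT, and 5 of them were called higher in TJ, against 7.41% of all genes. In GT 2 were called higher (Lipe and Plin1, list median 0.65), against 1.83% of all genes. The 7 endothelial markers summed to 288 to 359 FPKM in HFD, 515 to 768 in TJ and 388 to 428 in GT, with 3 called higher in TJ (Egfl7, Emcn and Vwf, list median 0.60) and 0 in GT by limma (median 0.25). Of 6 mesothelial markers tested, Wt1 was called lower in TJ (median −0.65) and 0 in GT by limma (median −0.45). Of 6 smooth muscle and pericyte markers tested, 0 were called in TJ (median 0.46) or GT (median 0.21) by limma. No marker of the macrophage, fibroblast and progenitor, adipocyte and endothelial lists was under 0.1 FPKM in any library. HFD replicate 1 held germ cell markers at 2180 FPKM in sum and HFD replicate 2 epididymis markers at 1292 FPKM, while in GT and TJ the highest sums of these lists were 82.7 and 12.8 FPKM. The part of these cells in the matrix results was not tested.

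**Figure D5:**
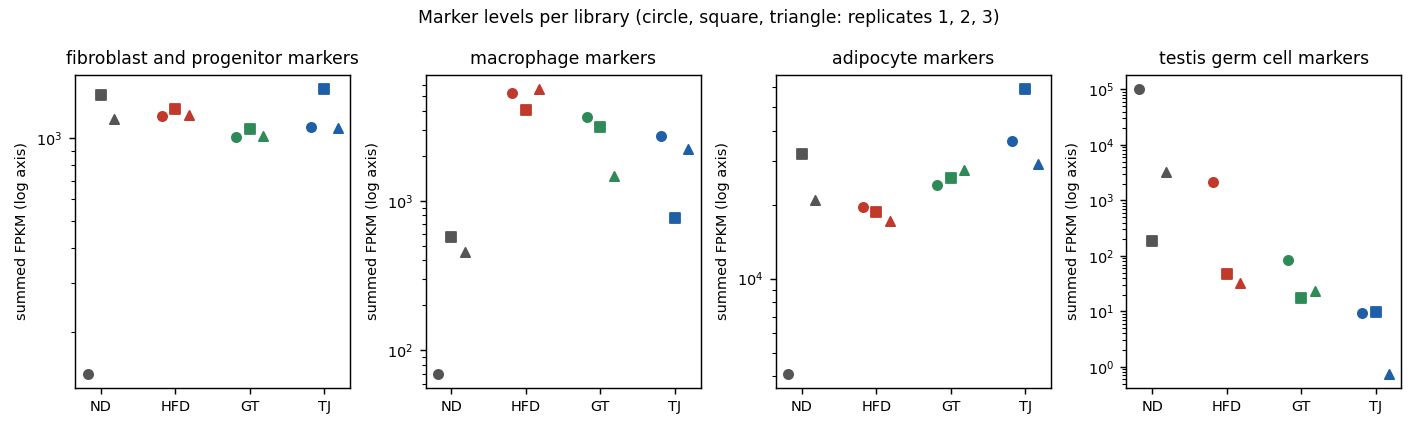
Summed FPKM of the fibroblast and progenitor, macrophage, adipocyte and testis germ cell markers in each library, by group (log axes, with circle, square and triangle for replicates 1, 2 and 3). Macrophage markers are highest in HFD, the highest adipocyte sum is in TJ, and ND replicate 1 is lowest in all but the germ cell markers, where it is highest.

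Genes whose pattern over all 12 libraries was most like that of a member are given as a description. Fn1 was most like Fstl1, Olfml2b and Mcm4, with Pearson r of 0.996, 0.992 and 0.987 on log2(FPKM + 1). Postn was most like Bgn (0.992), Aldh9a1 and Fbxo25, and Loxl2 like Golph3l (0.994), Armcx3 and Spred1. Sparc was most like Bcar3 (0.994), Adra1a and Cfb. Lox was most like Glud1 (0.997), Paics and Zfp874a, Loxl1 like Nes (0.967), Tnip1 and Slc35e4, and Loxl3 like S1pr3 (0.985), Mier2 and Zfp658. Thbs1 was most like Ebf2 (0.957), Insig2 and Mnat1, Thbs2 like Sgk1 (0.976), Csf1 and Trmt11, and Tnc like Itpkb (0.965), Mark4 and F2r. The low values of ND replicate 1 enter all of these.

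Over the 9 libraries of mice on the high-fat diet Fn1 remained most like Fstl1 (r = 0.993), and Loxl2 was most like Eif4e (0.995). Within the 10 genes and these 9 libraries, which share their group means, Loxl2 and Fn1 correlated at 0.94, Loxl2 and Postn at 0.93, Thbs1 and Thbs2 at 0.81 and Sparc and Postn at −0.63. After the group means were removed the same pairs correlated at 0.82, 0.75, 0.91 and −0.09. These pairs are examples, and some others shifted more. Loxl1 and Postn went from 0.90 to 0.13, Thbs1 and Postn from 0.09 to −0.81, and Sparc and Tnc from −0.04 to 0.89.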

How the data were processed

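RNA-seq was made from eWAT in 12 libraries, 3 in each of 4 groups. The deposited values were FPKM per gene, which the authors computed with Cufflinks. Per the labels' processing notes the submitters used CASAVA 1.8.2, STAR 2.4.0 and Cufflinks 2.1.1, and the study's methods name another STAR version. The methods name the human genome, whereas all 23474 identifiers are mouse. Noncoding regions were masked, with multiread and fragment bias correction, which can shift the levels of paralogs. Counts were not used here.

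GENCODE release 21 (GRCm38) named 22671 identifiers and left 803 unnamed. Groups were assigned from the labels. Depth was estimated from FPKM steps of 2315 single-transcript genes of 1500 nt or more, and is approximate.

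Each comparison used only the 6 libraries of its groups, with limma 3.58.1 (R 4.3.3) on log2(FPKM + 1), by lmFit followed by eBayes, whose prior variance followed the mean. A log2 difference on this scale understates the change of low genes. A gene was tested where its mean reached 1 FPKM. Calls needed a Benjamini-Hochberg adjusted p under 0.05 over all tested genes and a fold change of at least 1.5. The fit was tested on simulated data. Exact permutation tests (scipy 1.17.1, whose smallest p for 3 against 3 is 0.1) were also run on the 10 genes and on 3 of the ratios. Only that of Fn1 in TJ against GT is printed. Other software was pandas 2.3.3, numpy 2.4.6, python 3.11.15 and matplotlib 3.10.9.

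The text names the 10 genes, Loxl4, the highest and lowest gene of a list, the called genes of a list where they are 5 or fewer, and for each of the 10 the 3 genes most correlated with it. Not every gene this rule covers is named, and the 6 called receptors are named beyond it. The members and lists were chosen with earlier results of these data known. Alternatives were a pseudocount of 0.1, a filter at 5 FPKM or none, quantile normalization or scaling by the median of ratios, a fit of all 12 libraries, a replicate block, array weights, no trend, removal of the trend with transcript length (loess, span 0.5) and each library left out. Leaving libraries out of the ratios, and ND replicate 1 out of the list counts, was chosen after seeing the data.

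Same-numbered libraries deviated together in HFD against ND (correlations 0.55, 0.34 and 0.12) and in GT against ND (0.22, 0.12 and 0.15). Each was over 0.1, and the replicate numbers were tried as a pairing of these libraries. In HFD against ND the highest correlation, 0.63, was between HFD replicate 3 and ND replicate 2, so the pairing is uncertain there. The labels name nothing shared by a number. None of the 10 was called in these comparisons without the block, so it had no call of theirs to remove. It left 0 of the 255 calls over all genes in HFD against ND.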

Additional observations from a re-analysis of the deposited data

How the results depend on the processing

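With 3 libraries a group, these counts of calls rest on single libraries and on the fit. In TJ against HFD 4 of the 10 genes were called, 2 with no filter and 0 with all 12 libraries in the fit. In GT against HFD 6 were called, 3 with median-of-ratios scaling, 2 with quantile normalization, and 0 with no filter, all 12 libraries or no trend. There 7 were called with the length trend removed (Thbs2 added), and 6 with a pseudocount of 0.1, with a filter at 5 FPKM (Thbs2 in, Loxl3 below the filter) and with array weights (Thbs2 in, Loxl3 out). Over all genes, calls fell from 2366 to 382 in TJ and from 464 to 5 in GT with no filter, and to 1 in each with all 12 libraries. In HFD against ND 3 were called with all 12 libraries (7.84% of all genes) and 6 with array weights (42.0% of all genes). Array weights also gave 1 call in TJ against GT (13.6% of all genes) and 3 in GT against ND (37.9%), both under the share of all genes. With a library left out, the members called ranged from 0 to 5 in HFD against ND, TJ against HFD and GT against HFD, and stayed at 0 in the other comparisons. The causes were not tested.

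With the replicate block, 3 genes remained called in TJ against HFD (Loxl1 at adjusted p = 0.0576 by limma) and 0 in GT against HFD (adjusted p = 0.0955 to 0.107 by limma for the 6). There the libraries share only a number, since same-numbered correlations were −0.03, −0.05 and 0.23 in TJ against HFD and 0.20, 0.05 and −0.07 in GT against HFD.

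Some differences that were not called changed sign. Thbs1 turned to −0.51 with array weights in HFD against ND, to 0.0034 with median-of-ratios scaling and 0.11 without the length trend in TJ against HFD, to −0.29 with array weights in TJ against GT, to −1.07 with array weights in TJ against ND and to 0.0183 with a pseudocount of 0.1 in GT against ND. Sparc in TJ against HFD turned to −0.14 with quantile normalization, and Lox in GT against HFD to 0.0291 with median-of-ratios scaling. In TJ against GT, array weights gave −0.20 for Loxl3, −0.12 for Thbs2, −0.0754 for Tnc and 0.0485 for Postn, and Postn was 0.00835 without the length trend. In GT against ND they gave −0.0375 for Loxl3 and −0.20 for Thbs2. With each library left out in turn, the differences that changed sign ranged in HFD against ND from −0.91 to 1.2 for Thbs1. They ranged in TJ against HFD from −0.37 to 0.0838 for Thbs1. They ranged in GT against HFD from −0.28 to 0.0279 for Lox. They ranged in TJ against GT from −0.16 to 0.11 for Loxl3, −0.00667 to 0.47 for Thbs1, −0.22 to 0.23 for Tnc and −0.13 to 0.0675 for Postn. They ranged in TJ against ND from −0.60 to 1.85 for Lox, −0.19 to 1.03 for Loxl2, −0.63 to 1.24 for Fn1 and −1.05 to 1.07 for Thbs1. They ranged in GT against ND from −0.0538 to 2.4 for Lox, −1.34 to 0.77 for Thbs1 and −0.14 to 1.48 for Thbs2. In the comparisons with ND these turns came without ND replicate 1, except that Thbs1 in GT against ND turned without ND replicate 2, ND replicate 3 or GT replicate 1. The other differences of the 10 genes kept their sign under every alternative run. That of Loxl4 in TJ against ND turned to −0.15 without ND replicate 1.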
